A study of Caenorhabditis elegans with 16 samples.

Results

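Heat shock in fasted worms was followed here through the 410 genes that both deposited tables list, out of 3698 genes in at least 1 table. There were 1442 genes listed for worms after heat shock and 2666 for worms at 20°C, and a gene entered either list only if the authors' test of fasted against fed worms at that temperature gave it an unadjusted p below 0.05. The 410 genes were therefore picked for a fasting effect, in part with these same libraries, and they do not represent the whole response to heat. The canonical heat shock genes hsp-70, hsp-16.2 and F44E5.4 are not among them and were not analysed here. The worms were Caenorhabditis elegans of the wild-type laboratory strain N2, measured as whole animals by sequencing of polyadenylated RNA. Fasted worms had been held without food for 24 h from the mid-L4 larval stage. They were then kept at 20°C (fasted basal, 4 libraries) or moved to 35°C for 30 min (fasted heat shock, 4 libraries). Fed worms at 20°C (4 libraries) and after 30 min at 35°C (4 libraries) served for comparison. The labels describe 24 h of recovery after the fast and before the heat shock, whereas the study's account of the sequencing has the worms taken directly after the fast. Which of these holds for the libraries could not be settled.

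When proteins begin to unfold in the heat, the transcription factor HSF-1 binds heat shock elements in promoters and drives chaperone genes. Small heat shock proteins then hold unfolding proteins until other chaperones refold them. Acute heat also changes many genes outside this set, and total output of other transcripts often falls while chaperone transcripts accumulate.

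The 8 fasted libraries held 17421344 to 26398842 reads each, of which the 410 genes took 1.75% to 2.36%. Levels are given as CPM, the reads of a gene per 1e+06 reads of its library. On the first principal component, which carried 61.2% of the variance over genes with a mean count of at least 10, every heat shock library lay apart from every basal one. The second carried 18.6% and had fasted basal replicate 3 (score -10.6) and fasted heat shock replicate 4 (score 10.4) at its ends. Fasted heat shock replicate 2 lay nearest to the basal libraries on the first component (score 6.90, against 8.98 to 15.3 in the other 3). Whether the libraries of 1 group stem from different cultures is not stated, and the p-values may therefore reflect technical spread alone. In RNA from whole worms, fewer cells of a type and less RNA per cell cannot be told apart.

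After heat shock, 32 of the 410 genes rose and 50 fell in fasted worms at an adjusted p under 0.05 (edgeR's quasi-likelihood test, Benjamini-Hochberg over all 410). These are 7.80% and 12.2% of the genes tested, 20.0% together. The log2 change of the 32 genes had a median of 1.38 and that of the 50 genes a median of -1.96, while the median over all 410 was -0.09. At least a 2-fold change was fitted for 23 of the 32 and for 48 of the 50. The heat shock libraries lay entirely above the basal ones for 25 of the 32 genes, and entirely below them for 49 of the 50. Over all 410 genes, 6.34% lay entirely above and 15.9% entirely below. For each gene with groups apart, the two-sided exact permutation p on CPM was 0.0286, the smallest that 4 against 4 libraries can give. The count fell from 82 to 54 without fasted basal replicate 1 and to 53 without fasted heat shock replicate 3, the fallen genes to 31 in each case. It rose to 127, with 69 genes higher and 58 lower, when fasted basal replicate 3 and fasted heat shock replicate 4 were both left out, a choice made after seeing the data. In each of the 8 fits that left out 1 library, 21 of the 32 and 28 of the 50 genes passed.

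**Figure D1:**
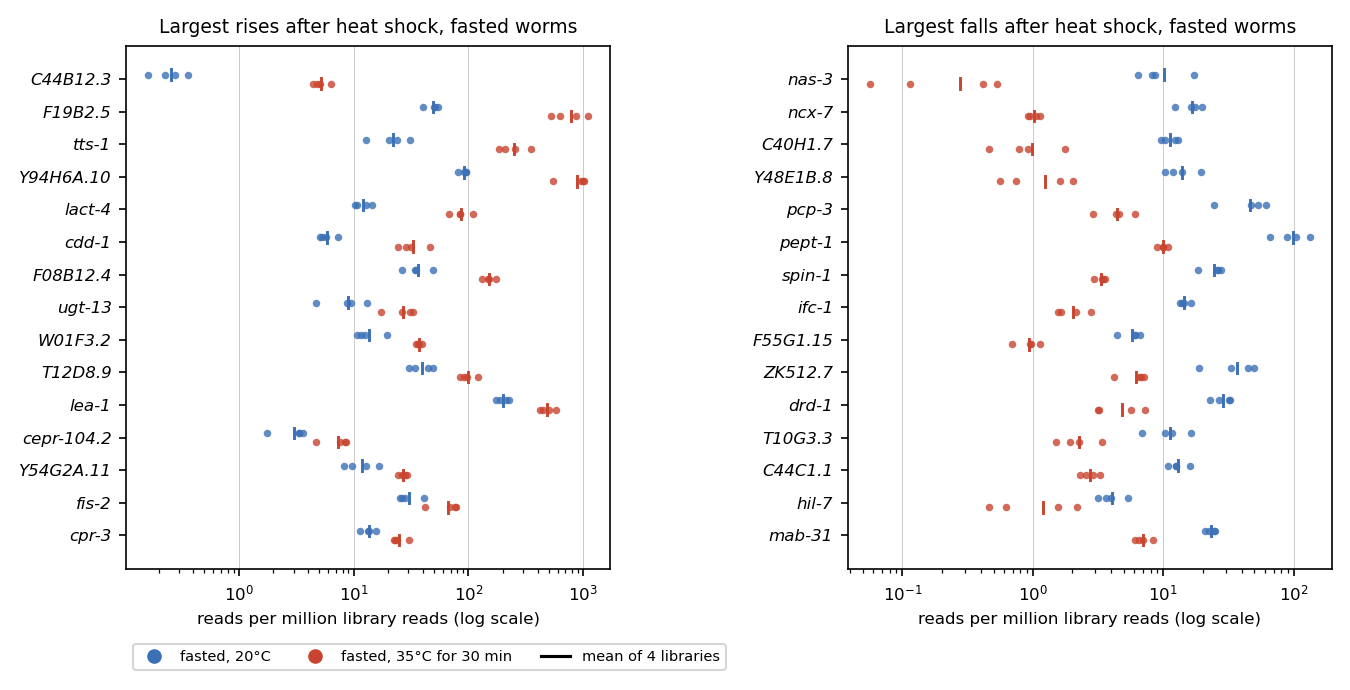
CPM on a log scale in each fasted library for the 15 largest rises (left) and the 15 largest falls (right) among called genes with libraries apart and a mean count of at least 50; points are libraries, blue at 20°C and red after 35°C for 30 min, and bars are means of 4. No red point overlaps the blue points of its gene, and nas-3 lies at 6.37 to 17.2 CPM before and 0.0564 to 0.531 CPM after heat shock.

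Of 20 HSF-1 target genes that the study names, 5 were in both tables, and 3 of these rose, against 7.80% of all 410 genes. The study named the 5 from these same libraries for a fasting effect, so they are not independent evidence. F19B2.5 (chromosome V, 20162648 to 20163732, WBcel235) stood at 53.8, 40.2, 51.3 and 49.97 CPM in the fasted basal libraries. After heat shock it stood at 628, 863, 1107 and 528 CPM. The lowest heated library was thus far above the highest basal one, and the mean went from 48.8 ± 5.94 to 782 ± 258 CPM (SD, n = 4 each), 16.01-fold (log2 change 4.00 ± 0.24, SE, adjusted p = 3.99e-07).

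Y94H6A.10 (chromosome IV, 2709900 to 2710670) had 95.9, 91.7, 95.6 and 80.7 CPM at 20°C and 1018, 992, 956 and 542 CPM after heat shock. Replicate 4 of the heated libraries was the lowest, yet still above all basal libraries (log2 change 3.27 ± 0.21, adjusted p = 3.99e-07). Per length, Y94H6A.10 went from 118 ± 9.22 to 1137 ± 292 FPKM (SD, n = 4) and from rank 30 to rank 4 of the 410 genes. F19B2.5 went from 65.5 ± 7.98 to 1049 ± 347 FPKM and from rank 51 to rank 5.

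The cytidine deaminase gene cdd-1, whose product salvages pyrimidines, went from 5.30, 5.70, 7.30 and 5.14 CPM to 24.6, 31.7, 46.6 and 28.5 CPM (log2 change 2.49 ± 0.26, adjusted p = 1.33e-05). All 4 heated libraries were above all basal ones. The other 2 named targets did not pass. Y22D7AL.10, which encodes the mitochondrial chaperonin partner of the Hsp10 kind, had 236, 281, 336 and 275 CPM before and 238, 225, 240.3 and 217 CPM after (log2 change -0.29 ± 0.14, adjusted p = 0.206). The egg activation gene egg-5 differed by 0.23 ± 0.17 (adjusted p = 0.419). In both, basal and heated libraries overlapped, and both passed in the fit with an offset trend on gene length (log2 changes -0.38 and 0.36, adjusted p = 0.0461 and 0.0368).

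Of 13 entries on the list of small heat shock proteins, only 2 genes were in both tables. Both rose, against 7.80% of all 410 genes. hsp-25 had 57.4, 48.6, 59.0 and 49.8 CPM at 20°C and 91.1, 90.3, 84.8 and 74.3 CPM after heat shock (log2 change 0.67 ± 0.15, adjusted p = 0.00854). Its groups did not overlap, but the rise of 1.59-fold was small beside that of F19B2.5. hsp-16.20 was close to the limit of detection in basal libraries, with 0.227, 0, 0.162 and 0.0910 CPM, or 11 reads in all. It reached 1.42, 1.59, 1.58 and 0.976 CPM after heat shock (log2 change 3.40 ± 0.59, adjusted p = 0.0011). Among genes of other branches of protein quality control, xbp-1, the transcription factor of the unfolded protein response in the endoplasmic reticulum, had 277, 253, 282 and 232 CPM before and 319, 356, 412 and 249 CPM after. Heated replicate 4 fell within the basal range, and the difference of 0.36 ± 0.17 did not pass (adjusted p = 0.176) unless that library was left out (0.47, adjusted p = 0.0332).

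The long non-coding RNA tts-1, known as a ribosome-associated transcript of long-lived daf-2 mutants (chromosome X, 1504131 to 1504841), had 20.4, 12.8, 30.7 and 23.9 CPM at 20°C. It had 254, 210.0, 353 and 186 CPM after heat shock, 11.4-fold in the mean (log2 change 3.51 ± 0.29, adjusted p = 1.7e-06). The groups were apart by a wide margin. lea-1, a late embryogenesis abundant protein gene known for protection against drying, rose from 214, 228, 188 and 172 CPM to 446, 505, 578 and 422 CPM (log2 change 1.28 ± 0.16, adjusted p = 5.13e-05).

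The beta-lactamase domain gene lact-4 rose from 12.7, 10.2, 14.4 and 10.7 CPM to 84.1, 109, 68.2 and 83.7 CPM (log2 change 2.84 ± 0.21, adjusted p = 6.17e-07). F08B12.4, for which no role is given here, rose from 34.1, 26.5, 48.8 and 35.1 CPM to 172, 132, 147 and 152 CPM (log2 change 2.06 ± 0.20). The largest fitted rise was that of C44B12.3, from 0.227, 0.277, 0.162 and 0.364 CPM to 4.41, 4.77, 6.37 and 5.05 CPM (log2 change 4.28 ± 0.38, adjusted p = 4.1e-06). It rested on 22 reads in the basal libraries together, so its size is less certain than those of F19B2.5 and tts-1.

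Genes of detoxification were mixed. UDP-glucuronosyltransferases attach a sugar to foreign and waste compounds, and of the 5 measured in this set, 3 rose and 1 fell, against 7.80% and 12.2% of all 410 genes, with a median log2 change of 1.08. ugt-13 rose from 8.67, 4.71, 13.02 and 9.47 CPM to 26.2, 33.1, 30.7 and 17.3 CPM (log2 change 1.58 ± 0.31, adjusted p = 0.00303), and its groups did not overlap. ugt-25 rose by 1.48 ± 0.32 on the log2 scale (adjusted p = 0.00545), although its heated replicate 4, at 12.5 CPM, lay within the basal range of 5.96 to 12.99 CPM. ugt-8 rose by 1.08 ± 0.35 (adjusted p = 0.0443). This call ended in 9 of 19 alternatives, among them those without any 1 of fasted basal replicates 1, 2 and 4 and fasted heat shock replicates 1, 2 and 3 (adjusted p 0.0685 to 0.127). ugt-19 went the other way, from 25.3, 9.97, 15.995 and 13.8 CPM down to 5.56, 5.57, 8.91 and 3.56 CPM (log2 change -1.46 ± 0.34, adjusted p = 0.00913). Among 3 cytochrome P450 genes, cyp-25A2 fell from a mean of 14.3 ± 0.700 to 7.13 ± 1.11 CPM (log2 change -1.004 ± 0.22, adjusted p = 0.00554) and the other 2 did not pass. cyp-37B1 among them had at most 0.459 CPM in any fasted library.

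Other genes that rose reached smaller folds. The mitochondrial fission gene fis-2 had a log2 change of 1.13 ± 0.24 (adjusted p = 0.0042) and the cathepsin B-like protease gene cpr-3 one of 0.88 ± 0.20 (adjusted p = 0.00854). ucr-2.1, a core subunit of respiratory complex III, went from 89.7 ± 4.80 to 139 ± 24.3 CPM (log2 change 0.64 ± 0.16, adjusted p = 0.0142). Without fasted heat shock replicate 3 it had 0.59 and missed the threshold (adjusted p = 0.0588). Of the 4 listed genes of the respiratory chain and ATP synthase it alone passed. Their median log2 change was 0.008, and 2 of the 4 lay below 0. The sugar transporter gene swt-6 rose by 1.21 ± 0.39 (adjusted p = 0.0459). That call ended in 10 of 19 alternatives. It ended without any 1 of fasted basal replicates 1, 2 and 4 and fasted heat shock replicates 1, 3 and 4 (adjusted p 0.091 to 0.127). It also ended by limma on log2 FPKM with pseudocount 1 or 0.1, with a mean count of at least 10 and in the fit of all 16 libraries (0.0517 to 0.0727). ssp-35, of a sperm-specific family, rose by 2.28 ± 0.43 (adjusted p = 0.00209) from 0.337 ± 0.134 to 1.67 ± 0.297 CPM. T12D8.9, W01F3.2, Y54G2A.11 and cepr-104.2 rose by 1.31, 1.44, 1.18 and 1.27, and the 10 remaining called genes by 0.58 to 3.34.

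The falls included pept-1, which encodes the proton-coupled transporter that brings dietary peptides into gut cells (chromosome X, 6456687 to 6461767). It stood at 104, 88.5, 65.3 and 133 CPM at 20°C and at 9.97, 10.9, 9.02 and 9.99 CPM after heat shock. The 4 heated libraries were nearly equal and 9.80-fold lower in the mean (log2 change -3.29 ± 0.23, adjusted p = 5.36e-07). ncx-7, of the sodium/calcium exchanger family (chromosome III, 9715883 to 9720291), went from 17.6, 16.3, 12.32 and 19.9 CPM to 1.06, 0.955, 1.13 and 0.918 CPM (log2 change -4.02 ± 0.28, adjusted p = 5.36e-07).

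spin-1, a worm homologue of the lysosomal transporter spinster, went from 27.7, 25.7, 18.5 and 26.1 CPM to 3.58, 3.40, 3.44 and 2.93 CPM (log2 change -2.87 ± 0.23, adjusted p = 1.7e-06). pcp-3, of the prolyl carboxypeptidase family, went from 53.6, 46.8, 24.4 and 60.8 CPM to 6.02, 4.35, 4.57 and 2.87 CPM (log2 change -3.38 ± 0.32, adjusted p = 7.56e-06). ifc-1, an intermediate filament gene of the intestine, went from 14.5 ± 1.30 to 2.04 ± 0.575 CPM (log2 change -2.83 ± 0.27, adjusted p = 7.56e-06). In each of these genes the highest heated library was far below the lowest basal one. Of the 4 genes on the intestine marker list, pept-1 fell, cpr-3 rose, and cpr-4 and cpr-5 did not pass, with a median of -0.57. cpr-4 and cpr-5, cathepsin B-like proteases, fell with the replicate block (log2 changes -0.54 and -0.55, adjusted p = 0.0207 and 0.031), and the list likewise had 3 falls without fasted basal replicate 2. The summed CPM of these 4 was 701 to 1173 at 20°C and 466 to 694 after heat shock. The gap between these ranges was narrow, and the sum includes pept-1, whose own fall was larger than the gap. The cathepsin genes cpr-3, cpr-4 and cpr-5 were not summed by themselves. The part of intestinal RNA as a whole in these falls was not tested.

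drd-1, a gene named for its lower level under dietary restriction, went from 32.05, 22.7, 26.96 and 32.4 CPM to 3.22, 3.18, 5.69 and 7.23 CPM (log2 change -2.56 ± 0.30, adjusted p = 4.26e-05). The linker histone gene hil-7 fell by 1.75 ± 0.47 on the log2 scale (adjusted p = 0.019). Without fasted heat shock replicate 1 or 3 its adjusted p was 0.0554 or 0.0624. Other large falls were of genes with no role given here, namely C40H1.7 (-3.51), Y48E1B.8 (-3.48), F55G1.15 (-2.63), ZK512.7 (-2.57), T10G3.3 (-2.32) and C44C1.1 (-2.24), besides mab-31 (-1.74), a gene of male tail development. The 26 called falls not named here had log2 changes of -4.19 to -0.93, with the groups apart in all 26.

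Of 14 genes of molting, cuticlins and astacins, which build and remodel the cuticle, 2 fell by edgeR, a share close to its 12.2% of falls over all 410 genes. By DESeq2's test, which called 90 of the 410 in either direction, 5 of the 14 fell. Their median log2 change was -1.05 against -0.09 over all 410, and 13 of the 14 lay below 0, as did 236 of the 410. Over the 19 alternatives, 1 to 7 of the 14 fell. There was 1 fall without fasted basal replicate 1, 3 or 4, without fasted heat shock replicate 1 or 3, and with the length trend and replicate block together. There were 7 without fasted heat shock replicate 2 and 7 with the replicate block alone. nas-3, an astacin metalloprotease gene (chromosome V, 9478164 to 9479604), had 8.60, 6.37, 8.21 and 17.2 CPM at 20°C and 0.413, 0.531, 0.0564 and 0.115 CPM after heat shock (log2 change -5.12 ± 0.56, adjusted p = 2.26e-05). It was the largest fall of the named genes, 36.3-fold in the mean, on 22 reads in the heated libraries. The lipocalin-related matrix gene lpr-5 had 2.39, 1.49, 1.78 and 1.82 CPM before and 0, 1.01, 0.0564 and 0.115 CPM after (log2 change -2.65 ± 0.80, adjusted p = 0.0334). Heated replicate 2 alone held most of its reads. The call ended in 8 of 19 alternatives, among them those without any 1 of fasted basal replicates 1, 3 and 4 and fasted heat shock replicates 1, 3 and 4 (adjusted p 0.0545 to 0.0913).

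Of 10 cuticle collagens, the structural proteins of the cuticle, 3 fell, against 12.2% of all 410 genes, with a median of -0.54. Their summed level overlapped, at 1919 to 3544 CPM before and 1633 to 3491 CPM after heat shock. Over the alternatives 1 to 4 fell, with 1 without fasted heat shock replicate 3, and 2 rose when fasted basal replicate 3 and fasted heat shock replicate 4 were both left out. dpy-7 had 1.48, 1.44, 3.57 and 1.77 CPM before and 0.138, 1.06, 0.225 and 0.172 CPM after (log2 change -2.35 ± 0.63, adjusted p = 0.019), again with heated replicate 2 the highest. col-77 had 19, 15, 7 and 10 reads before and 0, 1, 0 and 1 after (adjusted p = 0.00165), a ratio of 22.8 with a 95% counting interval of 5.98 to 193. sqt-2 fell by 2.59 ± 0.69 on the log2 scale (adjusted p = 0.019), although its groups overlapped. The dpy-7 call ended without fasted basal replicate 3 or fasted heat shock replicate 1 or 3 (adjusted p 0.0545 to 0.0635). The sqt-2 call ended without fasted basal replicate 1 or fasted heat shock replicate 3 (adjusted p = 0.066 and 0.0624). In the fit of all 16 libraries neither passed (0.0676 and 0.0506). Leaving out fasted basal replicate 3 with fasted heat shock replicate 4 also ended the dpy-7 call (0.0765), and limma with pseudocount 1 that of sqt-2 (0.064). The 5 collagen genes col-19, col-42, col-118, col-140 and col-143, named here after their values were seen, had changes of -0.16 to 0.25 and did not pass.

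All 4 hedgehog-related and patched-related genes had changes below 0 (-1.68 to -1.003, median -1.29), and by edgeR none passed. At an unadjusted p under 0.05 there were 2, and by DESeq2's test 0. By limma on log2 FPKM 0 fell with pseudocount 1 and 2 with pseudocount 0.1. In ptr-4 the basal libraries had 1.402, 1.27, 1.46 and 1.32 CPM and the heated ones 0.184, 1.38, 0.0564 and 0.0574 CPM. Heated replicate 2 thus matched the basal level while the other 3 were far below it. Without that library ptr-4 passed (log2 change -3.64, adjusted p = 0.000448), as did ptr-10 (-2.58, adjusted p = 0.0325). ptr-4 also passed by limma with pseudocount 0.1 (adjusted p = 0.0357). It passed with the replicate block (adjusted p = 0.0292), but not with the block and the length trend together (0.12). lpr-4 (-2.11 ± 0.73, adjusted p = 0.0629) and noah-1, a zona pellucida domain gene of the matrix (-1.14 ± 0.43, adjusted p = 0.0905), did not pass. By DESeq2's test both genes passed (adjusted p = 0.0403 and 0.0424), and by limma lpr-4 did with pseudocount 1 or 0.1 (0.0239 and 0.0229). lpr-4 also passed without fasted heat shock replicate 2 or 4 (adjusted p = 0.0432 and 0.0353), and both genes passed with the replicate block (0.0335 and 0.00987). With the block and the length trend together neither did (0.087 and 0.067). qua-1 (-1.097 ± 0.45) passed without fasted heat shock replicate 1 (adjusted p = 0.0409) and by limma with pseudocount 0.1 (0.0472). wrt-2 (-1.003 ± 0.76) passed under no alternative run.

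**Figure D2:**
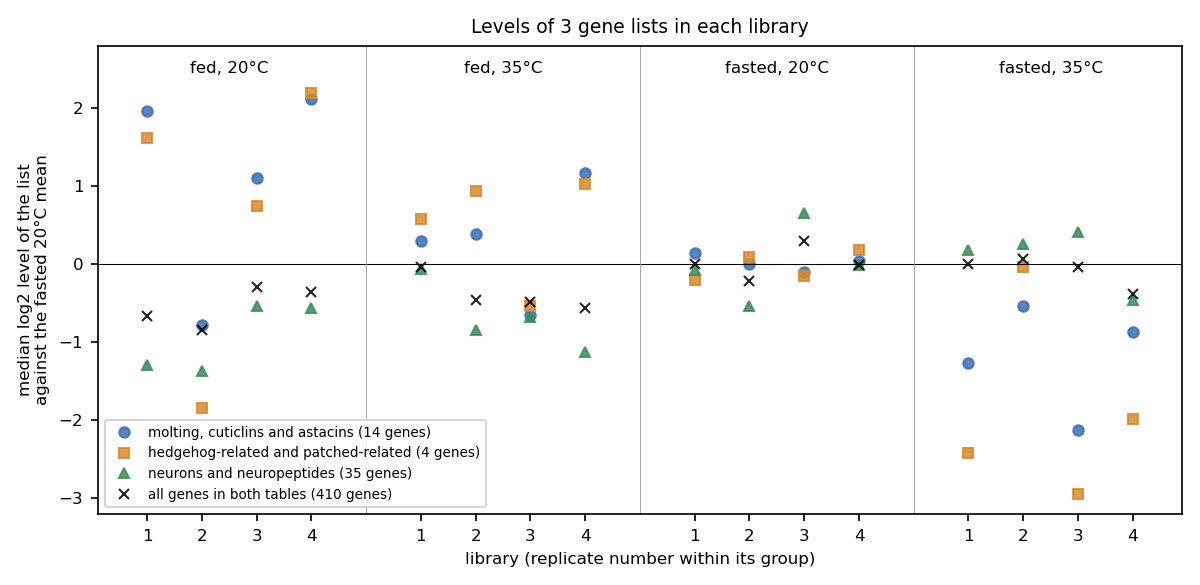
Median log2 level of each gene list in each of the 16 libraries, relative to the mean of the fasted basal libraries, by group and replicate number; circles are molting genes, squares hedgehog-related genes, triangles neuronal genes and crosses all 410 genes. The molting median lay between -0.10 and 0.15 in fasted basal libraries and between -2.13 and -0.53 in fasted heated ones, and it ranged from -0.77 to 2.11 among the fed libraries at 20°C.

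The fed libraries bear on how far these cuticle genes vary without heat. At 20°C the median level of the molting genes, relative to fasted basal worms, was 1.96, -0.77, 1.11 and 2.11 on the log2 scale. Replicate 2 was thus far below the other fed basal libraries, and the fed basal libraries spanned a wider range than the 8 fasted ones. Expression of molting genes is known to cycle with developmental stage, and the part of stage in these changes was not tested.

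In the pharynx, the feeding organ, 3 of 11 listed genes fell, against 12.2% of all 410, and 5 had changes above 0 (median -0.18). Over the alternatives 0 to 4 fell, with 0 without fasted basal replicate 1, without fasted heat shock replicate 3 and in the fit of all 16 libraries, and 1 without fasted heat shock replicate 1. There were 2 rises without fasted basal replicate 3 and 4 when fasted heat shock replicate 4 was left out with it. phat-5 fell by 2.34 ± 0.63 (adjusted p = 0.019), pqn-13 by 1.71 ± 0.43 (adjusted p = 0.0151) and abu-13 by 1.43 ± 0.41 (adjusted p = 0.0282), each from 1.39 CPM or less in the basal mean. Each of these calls ended without certain single libraries. phat-5 missed the threshold without fasted basal replicate 1 or fasted heat shock replicate 1 or 3 (adjusted p 0.0642 to 0.082), and pqn-13 without fasted basal replicate 1 or fasted heat shock replicate 3 (0.0514 and 0.0519). abu-13 missed it without fasted basal replicate 1 or 4 or fasted heat shock replicate 1 or 3 (0.0661 to 0.092) and with the replicate block (0.0697). abu-11 (-2.35 ± 0.90, adjusted p = 0.0909) passed only when fasted basal replicate 4 was left out (0.0351).

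The 35 genes of neurons and neuropeptides showed no called change by edgeR, with 20 above 0, a range of -0.71 to 0.86 and a median of 0.08. At an unadjusted p under 0.05 there were 3, and DESeq2's test called 1. Their summed level was 310 to 681 CPM in fasted basal libraries and 335 to 595 CPM in heated ones, with fasted basal replicate 3 the highest and replicate 2 the lowest. When fasted basal replicate 3 and fasted heat shock replicate 4 were left out, 6 rose, 1 fell and the median was 0.49. The 6 C-type lectins (median 0.19), the 6 lysozymes, saposins and antimicrobial peptides (median 0.36) and the 4 oocyte and eggshell genes (median -0.07) likewise had no called member by edgeR, with 1 gene each at an unadjusted p under 0.05. DESeq2's test called 0, 1 and 0 of them.

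**Figure D3:**
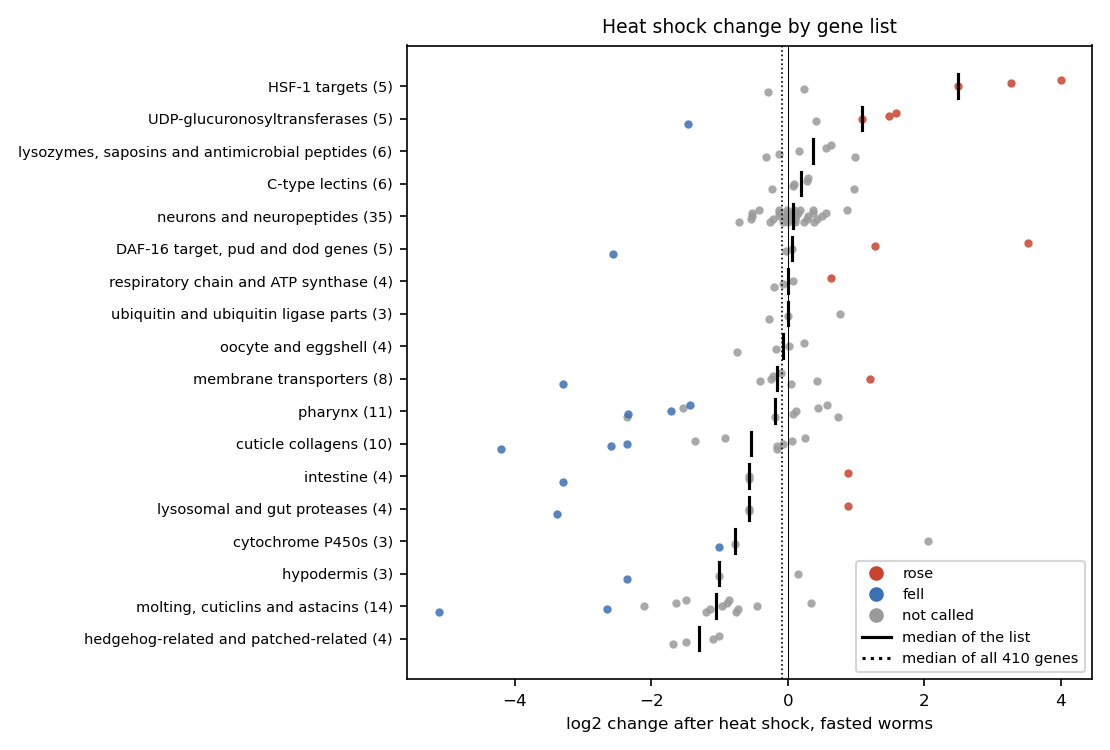
Log2 change after heat shock in fasted worms for each gene of the lists with at least 3 members in both tables (number of members in brackets); red points rose, blue points fell, grey points did not pass, solid bars are list medians and the dotted line is the median of all 410 genes. The molting (median -1.05) and hedgehog-related genes (median -1.29) lie left of the dotted line, and the neuronal genes (35) crowd around 0.

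In fed worms the same comparison, on 8 other libraries, called 10 genes up (2.44%) and 1 down (0.244%). Without fed heat shock replicate 1 it called 14 and 7. The count down was 3 without fed basal replicate 2 and 2 without fed heat shock replicate 3. The log2 changes of the 410 genes in fasted and in fed worms correlated across genes (Pearson's r 0.74, Spearman's rho 0.78), and 77.3% had the same sign. Genes are not independent replicates. All 410 were also selected for a fasting effect at both temperatures in these same libraries. The fasted mean changed sides of the fed mean between the temperatures in 30 of them. Such a selection can tie the heat changes in fasted and fed worms together, so the correlation and the shared signs may be in part built in. How far was not tested. Of the 32 genes that rose in fasted worms, 31 had a change above 0 in fed worms, and 9 were called there too. Of the 50 that fell, 48 were below 0 in fed worms, and drd-1 alone was called. The median change in fed worms was 0.87 for the 32 and -0.84 for the 50, against 1.38 and -1.96 in fasted worms. Since these genes were chosen as called in fasted worms, a smaller change in the other set is no test of a difference.

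**Figure D4:**
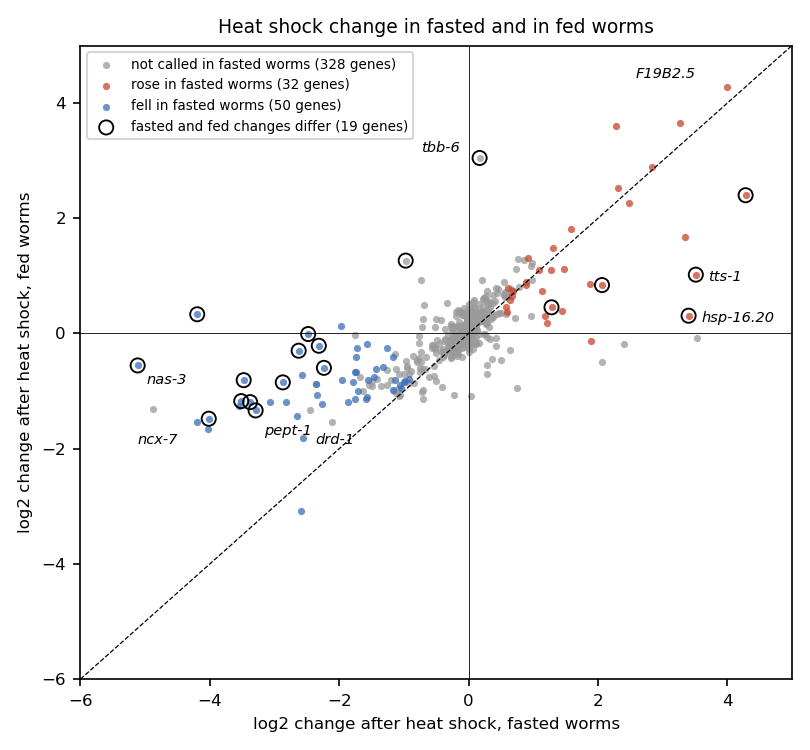
Log2 change after heat shock in fasted worms (x axis) against that in fed worms (y axis) for the 410 genes; red and blue points rose or fell in fasted worms, grey points did not pass, circled genes are the 19 that passed the interaction term, and the dashed line marks equal change. F19B2.5 lies near the line (4.00 and 4.28), while 49 of the 50 called falls lie above it, with a median of -1.96 against -0.84.

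No difference between the feeding states was detected for the induced HSF-1 targets. The log2 change in fed worms was 4.28 ± 0.28 for F19B2.5, 3.65 ± 0.38 for Y94H6A.10 and 2.26 ± 0.25 for cdd-1. The difference, fasted minus fed, was -0.28 ± 0.35, -0.39 ± 0.42 and 0.23 ± 0.33 (adjusted p = 0.998 each), which leaves room for a difference in either direction. The study names these genes as raised by fasting both with and without heat shock. Inclusion here required a fasting effect at each temperature. Similar effects at both keep this difference small, but similar size was not required. How far the selection bears on the missing difference was not tested. Whether fasting strengthens HSF-1 activity was not tested by this comparison either. The level did stay higher in fasted worms on average: F19B2.5 reached 782 ± 258 CPM in fasted and 443 ± 140.3 CPM in fed heated worms, from 48.8 ± 5.94 and 22.7 ± 5.55 CPM at 20°C. The tables chose these genes for that gap, so it is a description.

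The interaction term of 1 fit over 16 libraries, the heat change in fasted minus that in fed worms, passed in 19 genes, 5 above 0 (1.22%) and 14 below 0 (3.41%). In 18 of the 19 the fasted mean lay on opposite sides of the fed mean at the 2 temperatures, as it did in 30 of the 410 genes. Entry into both tables required a fasting effect at each temperature in these same libraries, so these p-values are not independent of how the genes were selected. The count also depended on single libraries. It was 5 without fasted basal replicate 1 or without fed heat shock replicate 1. It was 6 without fasted heat shock replicate 3 or fed basal replicate 2, and 7 without fasted basal replicate 4, fasted heat shock replicate 1 or fed basal replicate 1. It was 10 without fasted heat shock replicate 4 and 12 without fed basal replicate 3. ncx-7, spin-1, tbb-6 and tts-1 passed in all 25 alternatives run for this comparison.

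In ncx-7 the fed libraries had 7.85, 6.999, 14.4 and 12.2 CPM at 20°C and 6.19, 3.36, 2.28 and 2.98 CPM after heat shock. The fed fall was -1.48 ± 0.37 on the log2 scale against -4.02 in fasted worms, a difference of -2.54 ± 0.45 (adjusted p = 0.00924). For spin-1 the fed libraries had 9.42, 7.76, 9.28 and 14.5 CPM and then 10.4, 4.15, 3.51 and 4.62 CPM, with replicate 1 of the heated ones in the basal range. The difference was -2.02 ± 0.43 (adjusted p = 0.0174). In both genes fasted worms had the highest level at 20°C and the lowest after heat shock.

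tbb-6, a beta-tubulin gene, rose in fed worms and did not pass in fasted ones. Fed libraries went from 0.890, 2.46, 2.42 and 1.38 CPM to 24.8, 7.23, 14.7 and 12.2 CPM (log2 change 3.05 ± 0.45, adjusted p = 0.00268). Fasted libraries already had 16.3, 17.7, 32.7 and 24.5 CPM at 20°C and had 21.5, 29.1, 34.8 and 17.2 CPM after heat shock (0.17 ± 0.28, adjusted p = 0.808). The difference was -2.88 ± 0.54 (adjusted p = 0.00924), and fed heated worms did not exceed the fasted ones in the mean.

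tts-1 went the other way. Fed libraries had 43.02, 65.3, 175 and 65.8 CPM at 20°C and 131, 163, 257 and 159 CPM after heat shock, overlapping because of replicate 3 at 20°C. Fasted worms started lower and ended higher, a difference of 2.49 ± 0.52 (adjusted p = 0.0174). lea-1 (0.83 ± 0.20) and F08B12.4 (1.22 ± 0.29) differed in the same direction (adjusted p = 0.0244 for both). So did C44B12.3 (1.88, adjusted p = 0.0492) and hsp-16.20 (3.099, adjusted p = 0.0481), but their calls were lost in 20 and 18 of the 25 alternatives. pept-1 fell by 1.34 ± 0.38 in fed worms, from 41.6, 26.7, 37.8 and 65.7 CPM to 29.2, 16.6, 7.73 and 14.5 CPM, so that the difference was -1.96 ± 0.46 (adjusted p = 0.0244). nas-3 differed by -4.57 ± 0.99 (adjusted p = 0.0174), F55G1.15 by -2.33 ± 0.51 and C44C1.1 by -1.64 ± 0.39. The 12 of the 16 named genes other than ncx-7, spin-1, tbb-6 and tts-1 lost the call in 1 to 20 of the 25 alternatives. The other 3 of the 19 were T15B7.10, sup-10 and mct-2, named after their values were seen.

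**Figure D5:**
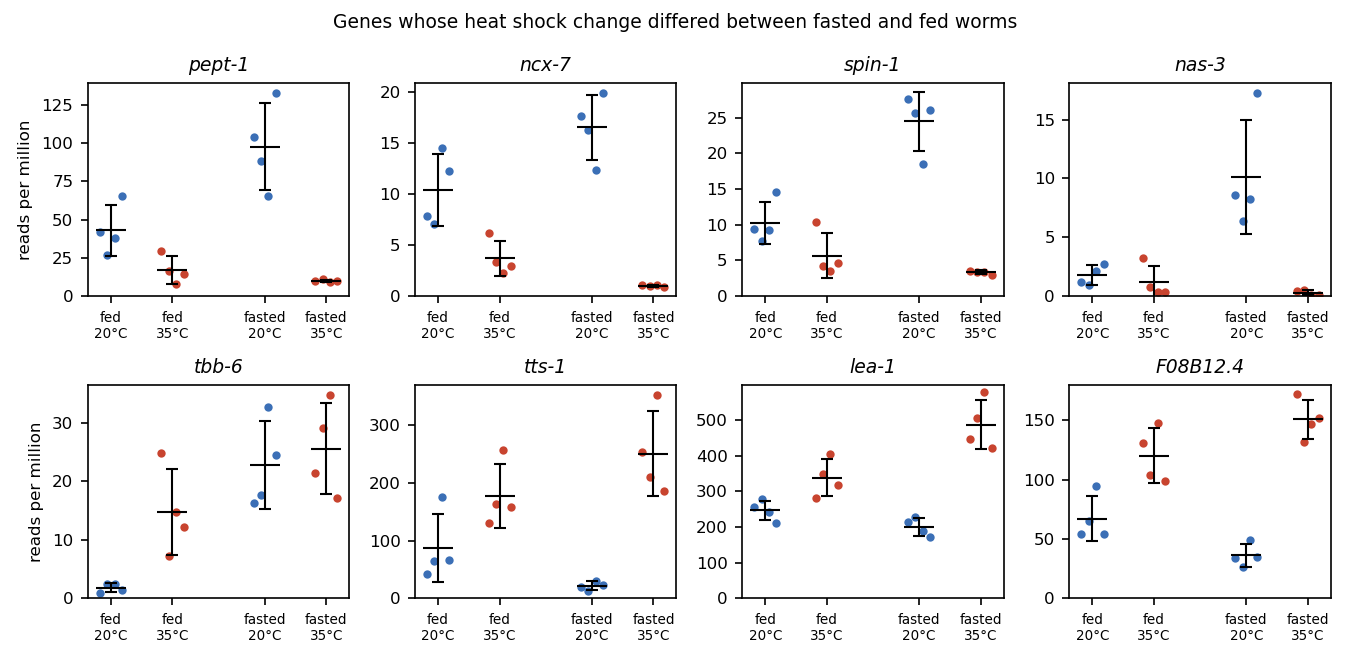
CPM of 8 genes in each of the 16 libraries (blue at 20°C, red after 35°C for 30 min; bars are mean and SD of 4), fed on the left and fasted on the right of each panel. pept-1, ncx-7, spin-1 and nas-3 are highest in fasted worms at 20°C and lowest in fasted worms after heat shock, tbb-6 rises in fed worms from 1.79 to 14.7 CPM, and tts-1, lea-1 and F08B12.4 have their lowest mean in fasted worms at 20°C and their highest in fasted heated worms.

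Across the 410 genes Spearman's rho between length and log2 change was -0.13, and in 10 groups of 41 genes by length the median change ran from -0.27 to 0.06. The calls were spread less evenly. The 4 groups of the shortest genes held 2, 1, 2 and 4 of the falls, and the 6 groups of longer genes held 7, 8, 5, 7, 8 and 6. With a trend on gene length in the fit, 59 genes fell and 32 rose. On the chromosomes, 13 of the 32 rises and 13 of the 50 falls lay on V, which holds 100 of the 410 genes, and 7 and 12 lay on X, which holds 99.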

How the data were processed

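Whole-animal RNA from 16 libraries was compared, 8 of them fasted. The raw counts per gene were made by the authors with HISAT2 2.0.5 and featureCounts 1.5.0-p3 on WBcel235, per the labels. Strand use was not stated, and overlapping genes cannot be told apart. The deposited FPKM values use gene length and library reads. The deposited signal values are counts divided by a DESeq2 size factor of each table, which is why they were not compared across tables. The authors' deposited log2 fold changes, p-values, adjusted p-values and group means were not used.

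The reads of each library were computed back from the deposited count, FPKM and length of its genes. Counts of the 410 shared genes were tested with edgeR 4.0.16 in R 4.3.3, with these reads as library sizes and no low-count filter, heat shock against basal in 8 fasted libraries, and as an interaction in 16. Called means an adjusted p under 0.05. Alternatives used DESeq2 1.42.0, limma 3.58.1 (FPKM on a log2 scale, pseudocount 1 or 0.1), other scalings, a mean count of at least 10, a replicate block, an offset trend on gene length and omission of single libraries. Single genes were compared by exact permutation tests (scipy 1.17.1). The edgeR test of heat shock in fasted worms was tried on simulated counts. It recovered 12, 33, 42 and 47 of 50 genes changed 1.5-fold, 2-fold, 3-fold and 4-fold, and called 2 of 210 unchanged genes. A gene that did not pass may thus still have changed. Symbols came from RefSeq for 407 genes, whose spans overlapped those of RefSeq on WBcel235. Coordinates are those of the files.

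The genes and the 46 gene lists were chosen with earlier results of these data known. Named were the genes the study names, the 15 largest rises and falls (called, libraries apart, mean count 50 or more), the 4 genes of each list with the smallest p, and the 5 with the smallest p in each direction of the difference. List members that did not pass and changed less than 2-fold were given by range. Promoter sequences were not analysed here. Counting intervals cover counting error only.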

Additional observations from a re-analysis of the deposited data

Results flagged for a closer look

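In 9 of 116 groups of 4 libraries, 1 library lay far from the other 3, against about 1 in 20 by chance. In fasted basal worms these were cepr-104.2 in replicate 2 (1.77 CPM), and fis-2 (41.3 CPM) and dpy-7 (3.57 CPM) in replicate 3. After heat shock they were Y94H6A.10 (542 CPM) and ugt-25 (12.5 CPM) in replicate 4, noah-1 in replicate 3 (0.958 CPM), and ptr-4 (1.38 CPM), dpy-7 (1.06 CPM) and lpr-5 (1.01 CPM) in replicate 2.

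In 16 named genes the interaction term in edgeR, fasted minus fed, had an adjusted p of 0.00924 to 0.0492. The genes entered the tables for a fasting effect at both temperatures in these same libraries, so these values describe the selected genes and are no independent test of a difference. The log2 change was lower in fasted worms for nas-3 (-4.57), tbb-6 (-2.88), Y48E1B.8 (-2.67), ncx-7 (-2.54), C40H1.7 (-2.34), F55G1.15 (-2.33), pcp-3 (-2.19), T10G3.3 (-2.104), spin-1 (-2.02), pept-1 (-1.96) and C44C1.1 (-1.64). It was higher for hsp-16.20 (3.099), tts-1 (2.49), C44B12.3 (1.88), F08B12.4 (1.22) and lea-1 (0.83).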

How the results depend on the processing

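The count of changed genes was 82, and 47 at an adjusted p under 0.01. Leaving out single libraries gave 53 to 87 (22 to 37 that rose, 31 to 54 that fell), and leaving out fasted basal replicate 3 with fasted heat shock replicate 4, added after seeing the data, gave 127 (69 rose). The cause was not tested. Under the other alternatives the count was 71 to 91. With the replicate block it was 91 (76 of the 82 shared). Same-numbered libraries correlated at 0.06, -0.06, 0.42 and 0.22, and differently numbered ones at -0.49 to 0.35. Whether the numbers pair libraries could not be settled, and the main fit did not pair them. The 19 genes whose heat change differed between feeding states became 10 with the replicate block and 5 to 20 without single libraries. The median log2 change was -0.09, with 0.00 (TMM), 0.04 (DESeq2 size factors) and -0.16 to 0.01 without single libraries. Of 46 named called genes, 36 kept the call under every alternative run and none changed direction. The change of tbb-6 in fasted worms, 0.17, ran from -0.012 to 0.40 without single libraries. Depth limits the genes with few reads, such as nas-3 and hsp-16.20.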
